A study of Mus musculus with 23 samples.

Results

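Transcripts of the mevalonate arm of cholesterol synthesis were measured in TM4 cells, a mouse testis line of immortalized Sertoli cells, after exposure to plasticizers. It was followed through 8 of its genes, Acat2, Hmgcs1, Mvk, Pmvk, Mvd, Idi1, Fdps and Ggps1, which act between acetyl-CoA and the prenyl diphosphates and are not a full list of its enzymes. The members were the probes whose RefSeq transcript belongs to these genes, which gave 11 of the 55681 non-control probes and 8 of the 20145 named genes. Acat2, Hmgcs1, Mvd, Idi1 and Fdps had 1 probe each, and Mvk, Pmvk and Ggps1 had 2.

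The study asked how proposed replacement plasticizers compare with an established phthalate in a cell type that phthalates are known to affect. The cells were plated in wells and treated for 48 hr with 100 μM of a compound in 1% DMSO, or with 1% DMSO alone, and each biological replicate was hybridized to its own 1-colour Agilent array. MEHP is mono-(2-ethylhexyl) phthalate, the monoester formed in the body from the phthalate DEHP. DINCH is the diisononyl ester of cyclohexane dicarboxylic acid, a commercial phthalate substitute. DOM is dioctyl maleate and DOS is dioctyl succinate, which differ in their core, maleate carrying a double bond where succinate has a single bond. BDB is butanediol dibenzoate. Each group had 4 arrays except DOS, which had 3, numbered 1, 3 and 4. All groups were the same cell line, so the results describe cultures of a single immortalized line.

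The mevalonate arm starts from acetyl-CoA, which is condensed to HMG-CoA and converted to mevalonate, phosphorylated and decarboxylated to isopentenyl diphosphate, and then joined into farnesyl and geranylgeranyl diphosphate. Farnesyl diphosphate feeds squalene and cholesterol, and the prenyl diphosphates are also used for protein prenylation, ubiquinone and dolichol. Most genes of the arm are textbook targets of SREBF2, a transcription factor held in the endoplasmic reticulum while sterol is plentiful and released when it falls.

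The processed signal of each array was put on a log2 scale relative to the 75th percentile of that array, and a value on this scale is called a log2 level. The share of non-control spots well above background ran from 43.4% to 52.2% per array, and no spot was saturated. All 11 member probes were well above background on all 23 arrays, and every member was tested in every comparison. Precision is limited by the number of arrays, as there are no reads to count. For each gene the brightest of its probes is given. Levels of different genes are not set against each other, because probes differ in brightness. A gene was called when its adjusted p was below 0.05 and its change exceeded 1.5-fold (limma, Benjamini-Hochberg adjustment over all tested probes). Of 13 Sertoli cell markers, 5 were above background on all arrays (Gata4, Inha, Inhbb, Kitl and Dhh) and 3 on none (Wt1, Fshr and Cldn11). Of 17 markers of Leydig, germ, peritubular myoid, endothelial and leukocyte cells on the arrays, Cyp17a1, Prm1, Acta2, Cnn1 and Pecam1 were above background on all arrays. Cyp11a1, Hsd3b1, Lhcgr, Ddx4, Dazl, Myh11, Cdh5, Ptprc and Adgre1 were above background on none.

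The members fell into a set that moved together and Ggps1, which mostly did not. The sequences upstream of 4 members of the set and of Ggps1 are shown to set the sterol and CCAAT elements they hold side by side. RefSeq promoters (assembly GRCm38.p6) were found for 7 of the 8 members. The stretches shown are the 250 bases before each start: Hmgcs1 at chr13:119690101-119690350 on the plus strand, Mvk at chr5:114444019-114444268 on the plus strand, Mvd at chr8:122443423-122443672 on the minus strand, Idi1 at chr13:8885356-8885605 on the plus strand and Ggps1 at chr13:14063489-14063738 on the minus strand. Capitals mark matches to the sterol regulatory element TCACNCCAC, which binds SREBF2, and to the CCAAT box on either strand, where it reads CCAAT or ATTGG.
Hmgcs1: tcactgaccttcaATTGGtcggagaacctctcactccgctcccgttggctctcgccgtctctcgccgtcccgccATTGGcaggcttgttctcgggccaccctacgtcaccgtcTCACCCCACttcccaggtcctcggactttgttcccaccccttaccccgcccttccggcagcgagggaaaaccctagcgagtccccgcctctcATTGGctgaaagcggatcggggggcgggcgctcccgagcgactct
Mvk: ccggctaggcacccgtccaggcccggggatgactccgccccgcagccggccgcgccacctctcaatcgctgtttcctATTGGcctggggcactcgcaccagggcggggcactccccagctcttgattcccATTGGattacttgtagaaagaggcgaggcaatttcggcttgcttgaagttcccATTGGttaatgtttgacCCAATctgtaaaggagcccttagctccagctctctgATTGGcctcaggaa
Mvd: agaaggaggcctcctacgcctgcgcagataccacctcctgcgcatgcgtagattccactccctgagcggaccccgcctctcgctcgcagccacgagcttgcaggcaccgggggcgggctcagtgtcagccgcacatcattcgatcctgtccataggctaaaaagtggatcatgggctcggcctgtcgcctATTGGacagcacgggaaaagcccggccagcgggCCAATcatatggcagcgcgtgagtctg
Idi1: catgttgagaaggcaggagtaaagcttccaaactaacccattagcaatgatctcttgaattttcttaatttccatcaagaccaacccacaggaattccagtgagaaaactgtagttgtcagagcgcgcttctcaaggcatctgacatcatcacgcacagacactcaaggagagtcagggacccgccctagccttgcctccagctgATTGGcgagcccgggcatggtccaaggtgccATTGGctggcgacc
Ggps1: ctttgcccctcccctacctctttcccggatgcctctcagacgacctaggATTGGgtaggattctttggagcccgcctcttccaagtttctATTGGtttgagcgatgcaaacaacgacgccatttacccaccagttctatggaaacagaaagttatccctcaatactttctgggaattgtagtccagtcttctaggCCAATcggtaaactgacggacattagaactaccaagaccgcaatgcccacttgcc

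Counted over 250 bases before and 50 after the start, the sterol regulatory element stood in 1 of the 8 promoters of these 7 genes (Pmvk has 2 promoters) and in 1.24% of the 32851 mouse promoters in the table. The match was in Hmgcs1 and read TCACCCCAC, from base -137 to base -129. CCAAT stood in 6 of the 8 promoters and in 37.4% of all promoters. Mvk held 5 copies, Hmgcs1 4, Ggps1 3, Mvd 2 and Idi1 2. Acat2 held 0, and the 2 promoters of Pmvk held 1 and 0. The GC box GGGCGG, searched on both strands, stood in 5 of the 8 and in 35.7% of all promoters. The E-box CACGTG stood in 0 of the 8 and in 7.15% of all promoters. No match overlapped a match of another motif. Of the members with several CCAAT boxes, Mvk, Hmgcs1, Mvd and Idi1 were called with at least 1 compound and Ggps1 with none. Acat2, with 0, was called with MEHP and DOM. Any relation between these boxes and the calls was not tested. Only the spellings given were searched, and variants of them were not. A match is a string of letters in this window and no binding was measured.

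Treatment with MEHP, DINCH or DOM raised most of the arm, whereas BDB and DOS gave no called member. With DOM, 7 of the 8 members were called higher, all but Ggps1, beside 8.80% of all 12001 genes tested. With MEHP, 6 of 8 were called higher, all but Mvk and Ggps1, beside 1.03% of 11947 genes. With DINCH, 5 of 8 were called higher (Hmgcs1, Pmvk, Mvd, Idi1 and Fdps), beside 3.79% of 11913 genes. With BDB and with DOS the number of members called was 0, as was the share of all genes called (0%). The median log2 change of the 8 members was 1.09 with DOM, 0.79 with MEHP, 0.59 with DINCH, 0.47 with DOS and 0.06 with BDB. The BDB median was not stable in sign, being -0.04 without BDB replicate 1 and 0.16 without BDB replicate 2. The median over all genes tested was -0.03 with DOM and BDB and nearer to 0 with the others. The comparisons share the 4 DMSO arrays, so their results are not independent of each other. In such whole-culture samples a change in the make-up of the cells and a change per cell cannot be told apart.

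The DOM count of 7 was the same under every alternative processing that was run and with any single array left out. With all probes tested whatever their brightness, the MEHP count was 0 and the DINCH count was 1 (Mvd). The MEHP count was 5 with normexp background correction (Acat2 lost) and 4 where detection on 1 array was enough (Acat2 and Idi1 lost). The DINCH count was 3 with normexp background correction (Pmvk, Mvd and Idi1) and 3 where detection on 1 array was enough (Pmvk, Mvd and Fdps). It also depended on single arrays, and was 2 without DINCH replicate 2, DINCH replicate 4 or DMSO replicate 4, and 3 without DINCH replicate 1 or DMSO replicate 3, and Pmvk and Mvd were called in each of these.

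**Figure D1:**
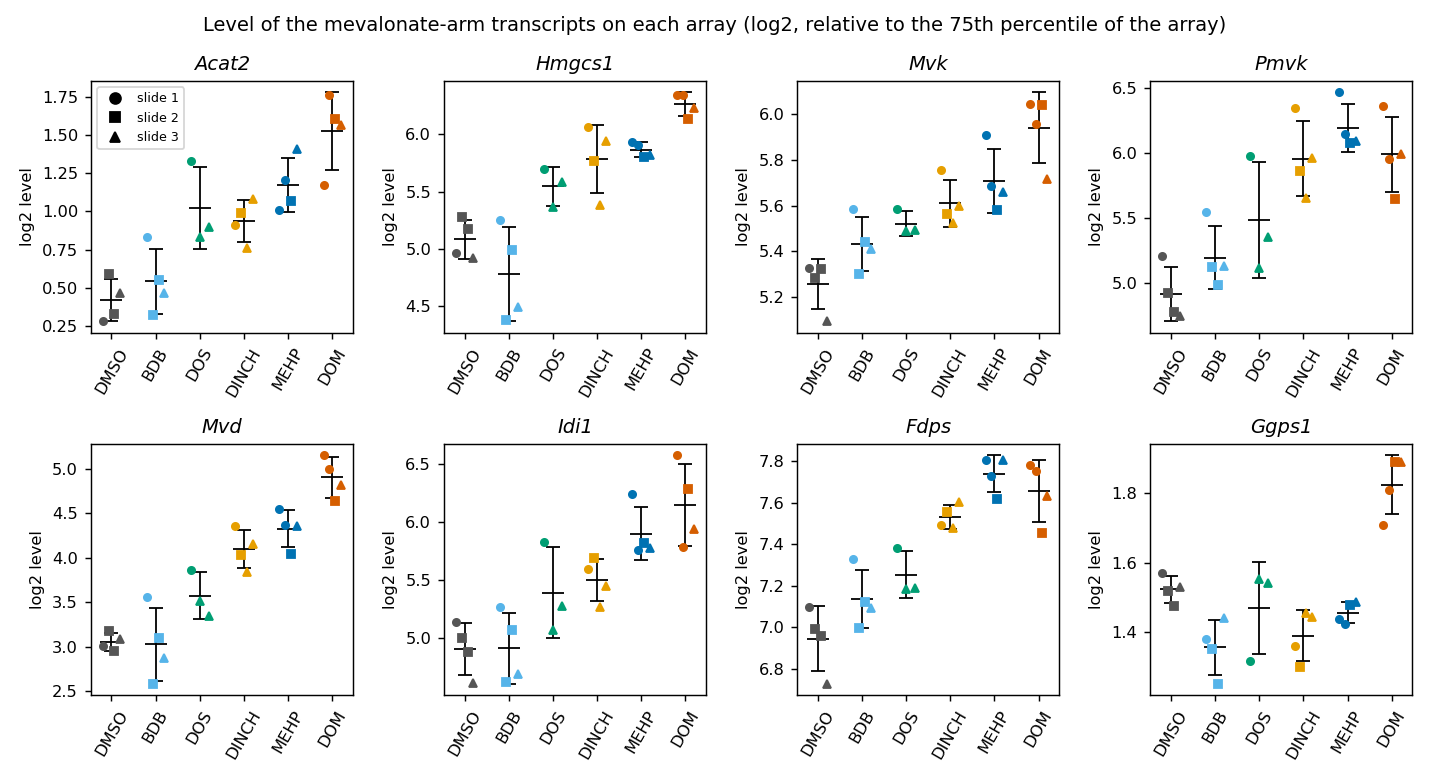
Log2 level of each mevalonate-arm transcript relative to the 75th percentile of its array, by group, with 1 point per array, symbols for the slide, and a bar for the mean and SD. For Acat2, Hmgcs1, Mvk, Pmvk, Mvd, Idi1 and Fdps the DINCH, MEHP and DOM points lie above every DMSO point, while for Ggps1 this holds for DOM only, and each panel has its own scale.

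Acat2, the cytosolic thiolase that joins acetyl-CoA units to acetoacetyl-CoA, rose with MEHP and DOM. Its log2 levels on the 4 DMSO arrays were 0.29, 0.59, 0.33 and 0.47. With MEHP they were 1.01, 1.20, 1.07 and 1.41, with DINCH 0.91, 0.99, 0.76 and 1.08, and with DOM 1.17, 1.76, 1.60 and 1.56. All 12 of these treated arrays lay above all 4 DMSO arrays. The change was 1.68-fold with MEHP (adjusted p = 0.0171) and 2.15-fold with DOM (adjusted p = 0.000722). With DINCH it was 1.43-fold (adjusted p = 0.0216), which missed the fold threshold. The DOS arrays read 1.33, 0.83 and 0.90 and also lay above every DMSO array, with a log2 change of 0.60 ± 0.15 (SE; adjusted p = 0.421). The BDB arrays read 0.83, 0.33, 0.55 and 0.47 and overlapped the DMSO arrays. The paralogue Acat3, a neighbour of Acat2 on chromosome 17, was called with MEHP (log2 change 1.07) and DOM (1.14) and not with DINCH (0.53), BDB (0.15) or DOS (0.49). Whether the Acat2 probe also reads Acat3 was not tested. The mitochondrial thiolase Acat1 was called with no compound, its log2 changes lying between -0.29 and 0.13.

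Hmgcs1, the cytosolic synthase that makes HMG-CoA, rose with MEHP, DINCH and DOM. The DMSO arrays read 4.97, 5.28, 5.17 and 4.92. The MEHP arrays lay close together at 5.94, 5.90, 5.81 and 5.82, and the DOM arrays at 6.34, 6.35, 6.14 and 6.23, whereas the DINCH arrays spread over 6.06, 5.77, 5.38 and 5.94. The order of means was DOM, MEHP, DINCH, DOS, DMSO and BDB. The DOM arrays did not overlap the MEHP arrays, and the DOS arrays, at 5.70, 5.36 and 5.58, did not overlap the DMSO arrays, while the other neighbours in this order overlapped. The fold changes were 1.72 with MEHP (adjusted p = 0.00855), 1.63 with DINCH (adjusted p = 0.0252) and 2.26 with DOM (adjusted p = 0.00028). With DOS the log2 change was 0.46 ± 0.13 (SE; adjusted p = 0.509). Hmgcs1 had the lowest change of the members with BDB, -0.30 (95% interval -0.74 to 0.13, adjusted p = 0.535), and the BDB arrays spread widely, at 5.25, 4.38, 4.99 and 4.50.

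Mvk, the kinase that phosphorylates mevalonate, was called with DOM only. Its levels were 5.32, 5.28, 5.32 and 5.09 with DMSO. They were 5.91, 5.69, 5.58 and 5.66 with MEHP, 5.76, 5.56, 5.52 and 5.60 with DINCH and 6.05, 5.96, 6.04 and 5.72 with DOM. None of these 12 arrays fell within the DMSO range. The change was 1.61-fold with DOM (adjusted p = 0.00198). MEHP gave 1.37-fold (adjusted p = 0.0529) and DINCH 1.28-fold (adjusted p = 0.0517). The second Mvk probe gave 1.41-fold with MEHP and 1.32-fold with DINCH with adjusted p below the threshold (0.0273 and 0.0352), again short of 1.5-fold. The arrays of DOS (5.58, 5.49 and 5.49) all lay above DMSO, and 3 of the 4 arrays of BDB (5.58, 5.30, 5.44 and 5.41) did. Mmab, a cobalamin enzyme gene whose start lies 242 bases from that of Mvk on the opposite strand, was called with MEHP (log2 change 0.71), DINCH (0.70) and DOM (0.72), and its change was 0.28 with BDB and 0.46 with DOS. The Mvk sequence above therefore also covers the start of Mmab.

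Pmvk, the kinase that follows Mvk in the arm, rose with MEHP, DINCH and DOM, and its mean was highest with MEHP. Its DMSO levels were 5.21, 4.93, 4.78 and 4.75. Those of MEHP were 6.46, 6.14, 6.07 and 6.09, those of DINCH 6.35, 5.86, 5.66 and 5.96, and those of DOM 6.36, 5.96, 5.65 and 5.99. All of these arrays exceeded the DMSO arrays, and the 3 groups overlapped each other. The changes were 2.42-fold with MEHP (95% interval 1.97 to 2.97, adjusted p = 0.0063), 2.05-fold with DINCH (1.59 to 2.65, adjusted p = 0.00768) and 2.10-fold with DOM (1.62 to 2.71, adjusted p = 0.00168). The second Pmvk probe gave the same calls, at 2.38-, 1.98- and 2.10-fold. In DOS, replicate 1 stood at 5.98 and replicates 3 and 4 at 5.12 and 5.36, and replicate 3 was below the highest DMSO array. Its log2 change of 0.57 was 0.32 without replicate 1. In BDB, replicate 1 was again the highest, at 5.55 against 5.13, 4.99 and 5.13.

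Mvd, the decarboxylase that yields isopentenyl diphosphate, had the largest change of the members with DOM, and with MEHP and DINCH its change was close to that of Pmvk. Its DMSO levels, 3.01, 3.18, 2.95 and 3.09, were close together. With MEHP they were 4.55, 4.37, 4.04 and 4.36, with DINCH 4.36, 4.03, 3.85 and 4.16, and with DOM 5.16, 5.01, 4.64 and 4.82. Each treated group cleared the DMSO range, and the lowest DOM array was above the highest MEHP array. Relative to DMSO, Mvd was 3.60-fold higher with DOM (2.95 to 4.38, adjusted p = 0.000118), 2.41-fold with MEHP (2.02 to 2.89, adjusted p = 0.00481) and 2.06-fold with DINCH (1.70 to 2.50, adjusted p = 0.00363). The 3 DOS arrays stood at 3.86, 3.51 and 3.35, between the DMSO and DINCH means, and none overlapped DMSO. The DOS change was 0.52 ± 0.14 on the log2 scale (SE; adjusted p = 0.467). BDB arrays scattered on both sides of DMSO, at 3.56, 2.58, 3.10 and 2.88, and the change of -0.03 had an interval of -0.44 to 0.39.

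Idi1, the isomerase that makes dimethylallyl diphosphate, rose with the same 3 compounds, and, as for Fdps, its levels with DINCH and MEHP did not overlap. The DMSO arrays read 5.14, 5.0, 4.87 and 4.61, the MEHP arrays 6.24, 5.76, 5.82 and 5.78, and the DOM arrays 6.58, 5.78, 6.29 and 5.94. The DINCH arrays read 5.60, 5.69, 5.27 and 5.45, above every DMSO array and below every MEHP array. Calls were made at 1.99-fold for MEHP (adjusted p = 0.0164), 1.51-fold for DINCH (adjusted p = 0.0299) and 2.36-fold for DOM (adjusted p = 0.00156). In DOS, replicate 1 read 5.83 and the others 5.07 and 5.27, and the log2 change of 0.48 was 0.27 without replicate 1. The change with BDB was 0.00 (interval -0.38 to 0.38), with arrays at 5.26, 4.62, 5.06 and 4.69. The paralogue Idi2 was too dim to be tested.

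Fdps makes farnesyl diphosphate, the branch point between sterols and prenyl groups. It lay at 7.10, 6.99, 6.96 and 6.73 on the DMSO arrays. It lay at 7.81, 7.73, 7.62 and 7.80 with MEHP, at 7.49, 7.56, 7.48 and 7.60 with DINCH and at 7.78, 7.75, 7.45 and 7.63 with DOM. Like Pmvk it had its highest mean with MEHP, and the other 6 members had theirs with DOM. The changes were 1.73-fold with MEHP (adjusted p = 0.00855), 1.64-fold with DOM (adjusted p = 0.00231) and just over 1.5-fold with DINCH (log2 change 0.59, adjusted p = 0.0109). DOS stood at 7.38, 7.19 and 7.19, above the DMSO and below the DINCH arrays, with a log2 change of 0.31 ± 0.12 (SE; adjusted p = 0.652). BDB stood at 7.33, 7.0, 7.12 and 7.09 and overlapped DMSO.

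Ggps1, which makes geranylgeranyl diphosphate for protein prenylation, was called with no compound. Its brightest probe read 1.57, 1.52, 1.47 and 1.53 with DMSO. It read 1.44, 1.42, 1.48 and 1.49 with MEHP, 1.36, 1.30, 1.45 and 1.44 with DINCH, and 1.71, 1.81, 1.89 and 1.89 with DOM. On this probe the DOM arrays were all above DMSO (beside 19.0% of all genes) and the DINCH arrays all below (beside 12.4%), by small amounts. The DOM change was 1.23-fold (1.08 to 1.41, adjusted p = 0.0271), short of the fold threshold. The log2 changes were -0.07 with MEHP (interval -0.22 to 0.08) and -0.13 with DINCH (-0.33 to 0.06). They were -0.17 with BDB (arrays 1.38, 1.35, 1.25 and 1.44) and -0.05 with DOS (arrays 1.32, 1.55 and 1.54). The second Ggps1 probe did not repeat the DOM difference, with a log2 change of 0.04 (-0.20 to 0.29). Nor did it repeat the DINCH difference, with a log2 change of 0.14 (-0.12 to 0.41) and 3 of 4 arrays above all DMSO arrays. With BDB its 4 arrays lay above all DMSO arrays (log2 change 0.20, adjusted p = 0.308), where the brightest probe lay below (beside 8.66% of all genes).

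**Figure D2:**
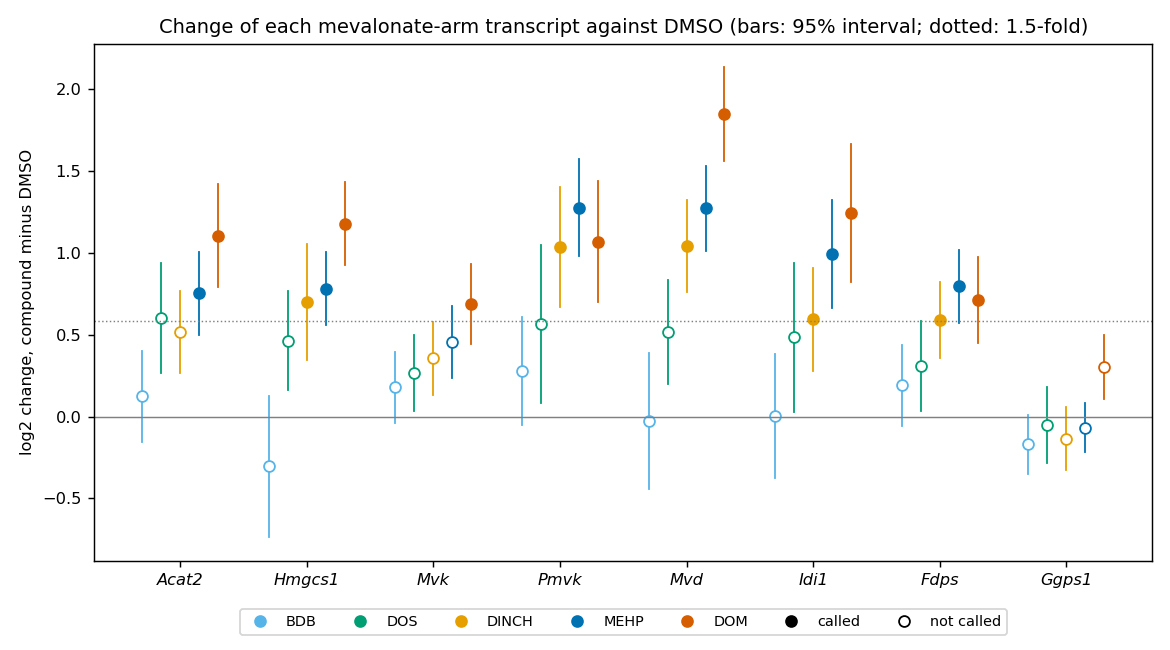
Log2 change of each mevalonate-arm transcript against DMSO for 5 compounds, as points with 95% intervals, filled where called and open where not, with a dotted line at 1.5-fold. Mvd with DOM stands highest at 1.85, the DOS points are open and lie between 0.27 and 0.60 for all members but Ggps1, and the BDB intervals all include 0.

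DOS produced no call, and 7 of its 8 changes were above 0. Adjusted p ranged from 0.421 (Acat2) to 0.961 (Ggps1). At an unadjusted p below 0.05, 7 of the 8 members were higher, beside 3.44% of 11933 genes. For 5 members (Acat2, Hmgcs1, Mvk, Mvd and Fdps) every DOS array exceeded every DMSO array, beside 4.33% of all genes. With BDB, 0 members were higher at an unadjusted p below 0.05, beside 5.51% of 11965 genes, and 0 had every array above DMSO, beside 3.29%. The same count of non-overlap was 8 with DOM (19.0% of all genes), 7 with MEHP (7.78%) and 7 with DINCH (11.6%). DOS has 3 arrays against 4, and its non-overlap counts are not on the same footing as those of the other compounds.

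Summarised per array as the median over the 8 members of the level minus the DMSO mean, the 4 DOM arrays lay between 0.92 and 1.05 and the 4 MEHP arrays between 0.70 and 0.86. The DINCH arrays lay at 0.62, 0.65, 0.35 and 0.66. The DMSO arrays lay between -0.16 and 0.07. The DOM, MEHP, DINCH and DMSO groups did not overlap on this summary. DOS replicate 1 stood at 0.71 and DOS replicates 3 and 4 at 0.24 and 0.33, and without replicate 1 the median DOS change of the members fell from 0.47 to 0.29. BDB replicate 1 stood at 0.37 and the other BDB arrays at -0.13, 0.10 and -0.02. Both of these replicates lay on slide 1, and the part of the slide in this was not tested.

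**Figure D3:**
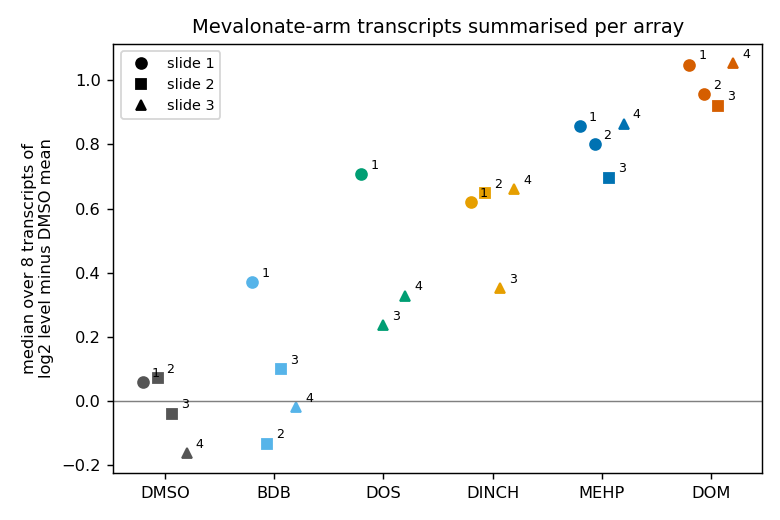
Median over the 8 mevalonate-arm transcripts of the log2 level minus the DMSO mean, 1 point per array, with the replicate number beside it and a symbol for the slide. DOM arrays lie highest (0.92 to 1.05), DMSO arrays near 0, and replicate 1 of DOS (0.71) and of BDB (0.37) stands above the other arrays of its group.

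Because the arrays lay on 3 slides, the changes were also taken within each slide, where a group had 1 or 2 arrays. For slides 1, 2 and 3 the median change of the 8 members was 0.99, 0.85 and 1.17 with DOM, all 8 members being above 0 on each slide. It was 0.84, 0.62 and 1.01 with MEHP and 0.54, 0.56 and 0.74 with DINCH, with 7 members above 0 on each slide. With BDB it was 0.27, -0.06 and 0.04. DOS had no array on slide 2, and its median was 0.71 on slide 1 and 0.43 on slide 3. The rise with DOM, MEHP and DINCH was thus present on every slide. The rows of the slides are less balanced. MEHP, DINCH and BDB occupied the same rows, DMSO, DOM and DOS the others, so for MEHP, DINCH and BDB the row and the comparison with DMSO cannot be told apart.

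Comparisons between compounds in shared rows do not have this limit, and 6 pairs of compounds were compared at the same dose and time, with p-values adjusted within each pair. MEHP against BDB called the same number of members as MEHP against DMSO, 6 of 8 (Acat2, Hmgcs1, Pmvk, Mvd, Idi1 and Fdps), beside 1.34% of 11938 genes. Mvd was 2.46-fold higher with MEHP than with BDB (1.81 to 3.35, adjusted p = 0.0129), Hmgcs1 2.12-fold (1.60 to 2.81, adjusted p = 0.0166) and Pmvk 1.99-fold (1.61 to 2.47, adjusted p = 0.0105). Every MEHP array exceeded every BDB array for all 6, beside 13.5% of all genes. The count fell to 2 without MEHP replicate 2, and to 3 without BDB replicate 2 or without BDB replicate 4. It was 0 with no filter on dim probes and 3 (Pmvk, Mvd and Fdps) where detection on 1 array was enough.

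DINCH against BDB called Hmgcs1, Pmvk, Mvd and Idi1 higher with DINCH, 4 of 8 members beside 4.88% of 11897 genes. The differences were 2.10-fold for Mvd (adjusted p = 0.00858), 2.01-fold for Hmgcs1 (adjusted p = 0.0148), 1.69-fold for Pmvk (adjusted p = 0.0171) and 1.51-fold for Idi1 (adjusted p = 0.0377). Fdps passed the adjusted p (0.0269) at 1.32-fold. Without BDB replicate 2 or BDB replicate 4 the count was 2, Hmgcs1 and Mvd, as it was where detection on 1 array was enough, and with no filter on dim probes it was 0. MEHP against DINCH called 0 members higher, beside 1.04% of 11836 genes, although all 8 differences were above 0 and 2 members, Idi1 and Fdps, had an unadjusted p below 0.05 (beside 11.7% of all genes). The median was 0.22 and the widest was Idi1, at 0.40 (interval 0.09 to 0.71, adjusted p = 0.163). Every MEHP array lay above every DINCH array for 2 members, Idi1 and Fdps, beside 9.78% of all genes. The interval for Hmgcs1 was -0.24 to 0.40 and that for Pmvk was -0.11 to 0.58.

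DOM and DOS, the dioctyl esters that differ in the double bond of the core, lay in the same rows as each other and as DMSO. All 8 members were higher with DOM, with a median difference of 0.50, and 2 were called, beside 6.04% of 11928 genes. Mvd was 2.51-fold higher with the maleate (1.93 to 3.28, adjusted p = 0.0026) and Hmgcs1 1.64-fold (1.36 to 1.99, adjusted p = 0.00669). Every DOM array exceeded every DOS array for 5 members, Mvd and Hmgcs1 among them, beside 17.7% of all genes. Mvk passed the adjusted p (0.0388) at 1.34-fold. Idi1 differed by 1.69-fold with an adjusted p of 0.0554, and with replicate number as a block it was called, which made 3. The count was 5 with quantile normalization (Mvk, Idi1 and Fdps added) and 5 with normexp background correction (Acat2, Pmvk and Idi1 added), and 1, Mvd, with no filter on dim probes. The Pmvk difference was 0.50 on the log2 scale with an interval of -0.02 to 1.03 (adjusted p = 0.156).

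DOM and MEHP lay in different rows. MEHP against DOM called 0 members lower, beside 8.17% of 11919 genes, and at an unadjusted p below 0.05 4 were lower with MEHP, Acat2, Hmgcs1, Mvd and Ggps1, beside 24.2%. Mvd was 1.49-fold lower with MEHP (adjusted p = 0.0134), just short of the fold threshold. Hmgcs1 was 1.32-fold lower (adjusted p = 0.006) and Ggps1 1.29-fold lower (adjusted p = 0.00591). For these 3 members every MEHP array lay below every DOM array, beside 19.8% of all genes. The log2 difference was 0.21 for Pmvk (interval -0.15 to 0.56) and 0.08 for Fdps (-0.14 to 0.30), both on the side of MEHP. Mvd was called, for a count of 1, without MEHP replicate 1, 2 or 4 or without DOM replicate 3 or 4, and with quantile normalization the count was 2, Hmgcs1 and Mvd. DOM against DINCH, also in different rows, called 3 members higher, beside 9.93% of 11883 genes: Mvd at 1.75-fold (adjusted p = 0.00323), Idi1 at 1.57-fold (adjusted p = 0.0213) and Acat2 at just over 1.5-fold (adjusted p = 0.0117). Without DOM replicate 3 or DINCH replicate 3, or with no filter on dim probes, the count was 1, Mvd. Pmvk differed by 0.03 (-0.37 to 0.44).

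The enzymes before and after the arm were described from lists. Of the 12 enzymes from squalene to cholesterol, 11 were called higher with DOM (beside 8.80% of all genes), 9 with MEHP (1.03%), 1 with DINCH (3.79%) and 0 with BDB and DOS. The single DINCH call is near the share of all genes. Their median log2 changes were 0.97, 0.62, 0.42, -0.01 and 0.32 in that order, beside the member medians of 1.09, 0.79, 0.59, 0.06 and 0.47. The called enzyme with the largest change was Tm7sf2, a sterol reductase, with DOM (2.04), Nsdhl, a sterol dehydrogenase, with MEHP (0.95) and Dhcr7, another sterol reductase, with DINCH (0.65). With DOS all 12 lay above 0, at 0.16 to 0.68. Of the 3 genes of acetyl-CoA supply, Slc25a1, the mitochondrial citrate exporter, was called with MEHP (0.83), DINCH (0.68) and DOM (0.86), and Acly, which splits citrate to acetyl-CoA, with MEHP (0.61) and DOM (0.93).

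Enzymes that use the products of the arm for other purposes were counted in the same way. Of 14 users of prenyl diphosphates, 0 were called higher with any compound, beside 8.80% of all genes with DOM, 3.79% with DINCH and 1.03% with MEHP. With MEHP 0 were called lower (beside 0.502% of all genes). With DOM 3 were called lower, beside 9.76% of all genes, which were Pdss1 (-1.47) and Coq2 (-0.95), both of ubiquinone synthesis, and Rabggtb (-0.63), a subunit of the Rab prenyltransferase. With DINCH 1 was called lower, Pdss1 (-0.83), beside 3.17% of all genes, and 8 of the 14 lay above 0. Coq2 and Rabggtb were named after their values were seen. Of 7 sterol regulators, 1 was called higher with MEHP (beside 1.03% of all genes), 1 with DINCH (3.79%) and 2 with DOM (8.80%). With any compound 0 of the regulators were called lower. Insig1, which retains the SREBF2 complex in the endoplasmic reticulum and is itself a target of it, was called higher with MEHP (0.82), DINCH (0.64) and DOM (0.97). Its change was -0.28 with BDB and 0.18 with DOS. The other regulator called with DOM was Insig2 (0.60, adjusted p = 0.00344), a relative of Insig1, named after its values were seen. With DINCH, 5 of the 7 lay below 0. Srebf2 was called with no compound, with log2 changes of 0.32 with MEHP, -0.02 with DINCH, 0.32 with DOM, -0.02 with BDB and -0.09 with DOS.

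**Figure D4:**
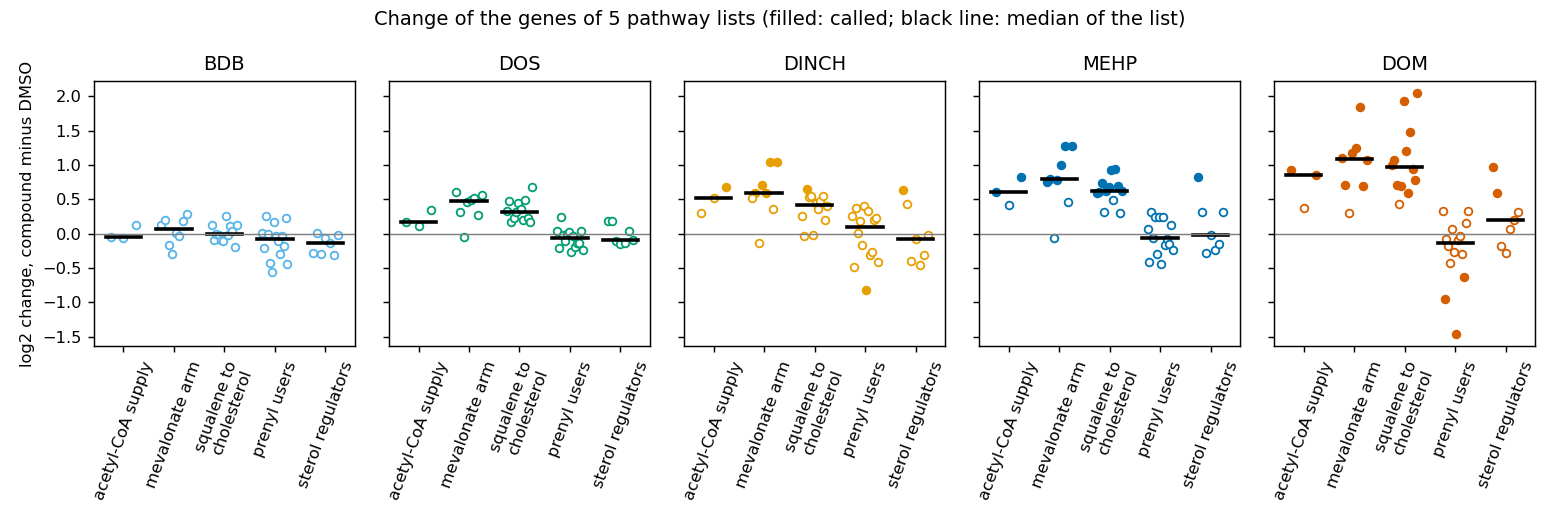
Log2 change against DMSO of each gene of 5 lists, in 1 panel per compound, filled where called and open where not, with a black line at the median of the list. The medians of the mevalonate arm and of the squalene to cholesterol enzymes lie above 0 with DOS, DINCH, MEHP and DOM, whereas the users of prenyl diphosphates have medians between -0.14 and 0.09 with all 5 compounds.

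Genes outside these lists were ranked by how close their 5 log2 changes against DMSO came to the medians of the members, by root mean square difference over 11835 genes tested with all 5 compounds. The closest was Scd1, the stearoyl-CoA desaturase, with changes of 0.88 with MEHP, 0.46 with DINCH, 0.94 with DOM, 0.12 with BDB and 0.42 with DOS (root mean square difference 0.105). It was followed by Adamts9 (0.122), Ropn1l (0.124), Mblac2 (0.129), Car5b (0.139), Alpk1 (0.144), Pcyt2 (0.145), Kcnab3 (0.151), Idh1 (0.152) and Plekhg4 (0.156). Of the members themselves, Acat2 was closest to their median (0.0733), ahead of Idi1 (0.118). The measure rests on 5 group differences that share the DMSO arrays, and is a description.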

How the data were processed

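Gene expression in TM4 cells was measured on 23 1-colour Agilent arrays on 3 slides, each a biological replicate per the study's methods. The deposited intensities were the scanner's processed signals, which the authors extracted with Feature Extraction 11.5.1.1, with background subtraction and no scaling between arrays. The authors also deposited log2 values, shifted to the 75th percentile and centred on each probe's median. Every array was most like its own column of these values (lowest r = 0.9996, highest r with another column 0.408).

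Here the intensities, with a floor of 1, were put on a log2 scale, and the 75th percentile of the non-control spots was subtracted. Spots of a probe were averaged without outlier spots, of which an array had 102 to 187. Probes were named by RefSeq accession (26582 of 55681 probes), since the array files hold accessions and the array was designed on mm9. Tested probes were those that, in all arrays of at least 1 of the compared groups, exceeded background well and reached the 20th percentile. Each compound, and 6 pairs of compounds, were compared in fits of those arrays only with limma 3.58.1 (R 4.3.3), with Benjamini-Hochberg adjustment over all tested probes. A gene took the values of its brightest probe. The fits and calls were also run on simulated data, with a cut on the mean level of a probe in place of the filter on dim probes. The outcome of these runs is not used here. Promoter letters came from RefSeq (GRCm38.p6). Figures were drawn with Python 3.11.15, pandas and matplotlib 3.10.9.

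The members and lists were chosen with earlier results of these data known. The genes named are the 8 members, their paralogues, Mmab, Srebf2 and Insig1, the called gene with the largest change of each list against DMSO, and the 10 genes outside the lists closest to the members' medians. Some genes that meet these rules are not reported here. Replicate numbers are shared between groups, and pairing was checked from how arrays of the same number deviate together from the means of their groups. Every correlation lay above 0.1 for DINCH (0.17 to 0.50), BDB (0.25 to 0.43) and DOS (0.20 to 0.45) against DMSO, DINCH against BDB (0.15 to 0.37), DOM against DOS (0.10 to 0.40) and MEHP against DOM (0.19 to 0.61), and not for the other comparisons. Arrays of the same number mostly shared a slide. The lowest values came from pairs on different slides, as for replicate 2 of MEHP (-0.14) and of DOM (0.04) against DMSO. The check therefore cannot tell a shared replicate from a shared slide. The alternatives were quantile normalization, normexp, other filters on dim probes, a slide block, a replicate block, a single fit of all groups, keeping outlier spots, a variance trend, calling a gene by any of its probes, the authors' log2 values, and omission of each array.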

Additional observations from a re-analysis of the deposited data

Results flagged for a closer look

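Of 40 sets of 4 arrays (8 members in the 5 groups with 4 arrays), 1 held an array that stood apart by Dixon's criterion, and chance gives about 1 in 20. It was Idi1 on MEHP replicate 1, with a log2 level of 6.24, where the nearest other MEHP array read 5.82 and the lowest 5.76. The gap was 0.862 of the range of the group. MEHP replicate 1 was also the highest MEHP array for Hmgcs1, Mvk, Pmvk, Mvd and Fdps, at levels within Dixon's limit.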

How the results depend on the processing

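The number of members called with DOM against DMSO was 7, and with BDB, with DOS and for MEHP against DINCH it was 0, under every alternative that was run. With no filter on dim probes it was 0 for MEHP, 1 for DINCH, 1 for DOM against DOS, 0 for MEHP against BDB, 0 for DINCH against BDB and 1 for DOM against DINCH. The cause was not tested. The log2 changes are the same in that fit. With detection on 1 array enough it was 4 for MEHP (without Acat2 and Idi1), 3 for DINCH, 3 for MEHP against BDB and 2 for DINCH against BDB. With normexp it was 5 for MEHP (without Acat2), 3 for DINCH and 5 for DOM against DOS. With quantile normalization it was 5 for DOM against DOS, with Mvk, Idi1 and Fdps added, and 2 for MEHP against DOM (Hmgcs1 and Mvd).

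Leaving out single arrays, the count ranged from 4 to 6 for MEHP, from 2 to 5 for DINCH, from 2 to 3 for DOM against DOS, from 2 to 6 for MEHP against BDB, from 2 to 4 for DINCH against BDB, from 0 to 1 for MEHP against DOM and from 1 to 3 for DOM against DINCH. With the replicate block it was 6 for MEHP, 5 for DINCH, 7 for DOM, 3 for DOM against DOS (with Idi1) and 5 for MEHP against BDB (without Acat2), and this pairing changed no other call of a member. Changes near 0 turned sign. Mvd with BDB (-0.03) was 0.0051 under quantile normalization, 0.12 without BDB replicate 2, 0.02 without BDB replicate 4 and 0.01 without DMSO replicate 2, and single arrays moved it between -0.21 and 0.12. Idi1 with BDB (0.00) was -0.12 without BDB replicate 1, -0.05 without BDB replicate 3, -0.01 without DMSO replicate 3 and -0.10 without DMSO replicate 4, and single arrays moved it between -0.12 and 0.10. Ggps1 with DOS (-0.05) was 0.024 without DOS replicate 1, and single arrays moved it between -0.095 and 0.024. Over the alternatives, values of the called members lost their call in 14 of 108 cases with MEHP, 24 of 90 with DINCH and 0 of 126 with DOM. The median change of the members with BDB (0.06) ran from -0.04 to 0.16 with single arrays left out.

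The limits are 4 arrays a group and 3 for DOS, 1 probe for 5 of the members, a second Ggps1 probe that differs from the first, and slide rows shared by MEHP, DINCH and BDB but not by DMSO.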

Other observations

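The 2 probes of Ggps1 gave different pictures. On the second probe the log2 levels were 0.88, 0.95, 0.91 and 0.80 with DMSO and 1.03, 1.21, 1.03 and 1.08 with BDB, so that every BDB array lay above DMSO, while on the brightest probe every BDB array lay below DMSO. With DOM the second probe read 0.76, 0.96, 1.17 and 0.83 and overlapped DMSO, while the brightest probe lay above DMSO on all 4 arrays. With DINCH the second probe read 1.17, 1.15, 0.72 and 1.06, above DMSO on 3 arrays, while the brightest probe lay below DMSO on all 4. The probes of Mvk and of Pmvk moved alike, with log2 changes of 0.69 and 0.65 for Mvk and of 1.07 and 1.07 for Pmvk with DOM.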
